A study of Mus musculus with 4 samples.

Results

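The peroxiredoxins are a family of peroxide-removing enzymes encoded in the mouse by 6 genes, Prdx1 to Prdx6, and were examined here in mouse fibroblasts that overexpress melanotransferrin. Members were all array probe sets that the platform annotation pairs with 1 of these genes alone, which gave 7 of 45037 non-control probe sets for 3 genes. They comprised 4 probe sets of Prdx4, 1 of Prdx3 and 2 of Prdx2. The family was selected on a measured value, the signal of 1 Prdx4 probe set that was lower in both melanotransferrin clones than in both vector lines. The difference between clones and vector lines is therefore given below as a description. Prdx1 had no probe set of its own, and the 5 probe sets annotated jointly to Prdx1 and the pseudogene Gm21399 are described apart from the members. The annotation used here pairs no probe set with Prdx5 or Prdx6, so no signal of these 2 genes was analysed here.

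The study measured total RNA of 4 stably transfected lines of LMTK- cells, each hybridised once to the Affymetrix Mouse Genome 430 2.0 Array. LMTK- cells are mouse L fibroblasts that lack thymidine kinase. MTf 4 and MTf 6 are 2 clones that carry the mouse melanotransferrin cDNA in the expression vector pCI-neo, and vector 1 and vector 2 carry that vector without an insert. Melanotransferrin is a membrane-anchored, iron-binding protein of the transferrin family. Each melanotransferrin line is a single clone, and whether the vector lines are clones or cultures is not in the labels, so their spread may be technical.

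Peroxiredoxins reduce hydrogen peroxide and organic hydroperoxides through a reactive cysteine, which is then restored mostly by thioredoxin and thioredoxin reductase. Prdx1 and Prdx2 act mainly in the cytosol, Prdx3 in mitochondria and Prdx4 in the endoplasmic reticulum, where the oxidised enzyme passes disulfides on to protein disulfide isomerases and so takes part in protein folding. Cysteines that peroxide has overoxidised are repaired by sulfiredoxin, encoded by Srxn1. Several genes of this system, Prdx1, Txnrd1 and Srxn1 among them, are known targets of the transcription factor NRF2.

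The promoter windows of Prdx4 and Prdx1 are shown because Prdx4 holds the difference that led to the family and because the probe sets annotated to Prdx1 varied together across the lines. Both are RefSeq sequences of the build GRCm38.p6, from 250 bases before to 50 after the start of the gene, written 5′ to 3′ on the strand of the gene. The Prdx4 window is chrX:155338411-155338710 on the minus strand and the Prdx1 window is chr4:116685349-116685648 on the plus strand. Capitals mark the matches to the motifs searched.
Prdx4: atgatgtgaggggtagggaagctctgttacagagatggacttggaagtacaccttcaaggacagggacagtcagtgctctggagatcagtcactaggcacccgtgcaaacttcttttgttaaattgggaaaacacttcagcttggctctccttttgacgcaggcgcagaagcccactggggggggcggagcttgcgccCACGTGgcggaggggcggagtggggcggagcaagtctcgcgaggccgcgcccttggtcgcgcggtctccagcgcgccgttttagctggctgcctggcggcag
Prdx1: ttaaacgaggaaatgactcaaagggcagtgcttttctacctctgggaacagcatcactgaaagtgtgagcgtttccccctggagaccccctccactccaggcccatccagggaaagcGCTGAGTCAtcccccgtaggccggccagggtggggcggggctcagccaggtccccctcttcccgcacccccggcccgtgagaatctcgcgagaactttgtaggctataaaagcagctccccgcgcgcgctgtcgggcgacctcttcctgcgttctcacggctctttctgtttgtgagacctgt
3 motifs were searched on both strands. The core of the antioxidant response element that NRF2 binds (TGACNNNGC) had 1 match in Prdx1, on the opposite strand and beginning at position -133 from the start of the gene, and it occurs in 12.4% of 32817 such windows. The E-box (CACGTG) had 1 match in Prdx4, at position -52, and occurs in 7.15% of the windows. The endoplasmic reticulum stress response element had 0 matches in the windows of Prdx1, Prdx2, Prdx3, Prdx4 and Prdx5, and occurs in 0.119% of all. The first 2 motifs had no match in the windows of Prdx2, Prdx3 and Prdx5. A match is a description of the letters only, and no match says nothing of the factor.

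The labels were checked on the targeted gene. Meltf, which encodes melanotransferrin, had a signal of 1518 in MTf 4 and 1885 in MTf 6, against 265 in vector 1 and 274 in vector 2. The log2 difference of Meltf, clones minus vector lines, was 2.52 (SE 0.23), with an adjusted p of 0.091 by limma. That is above the threshold of 0.05 used below, so the targeted gene itself did not pass. Tk1, the thymidine kinase gene, had a mean signal below the filter, which removes probe sets under the median of all non-control ones. Of 8 fibroblast marker genes, 7 had a mean signal above the filter, with Thy1 below it. Above the filter were also 2 of 4 epithelial, 3 of 4 leukocyte and 1 of 4 endothelial markers, so passing it does not mark a cell type. The median signal was 17087 for the fibroblast markers, against 102, 284 and 139 for the other sets in that order. The summed signal of 4 epithelial markers was 808 and 1120.1 in the clones, against 810 and 637 in the vector lines, that of 4 leukocyte markers 1445 and 760 in the clones, against 1307 and 1241 in the vector lines, and that of 4 endothelial markers 562 and 655 in the clones, against 650.0 and 552 in the vector lines. Epcam, an epithelial adhesion gene, was at 326 and 405 in the clones, against 131 and 40.1 in the vector lines, and no marker was listed at 0. The part of these markers in the values below was not tested. The 2%-trimmed mean signal was 1000.01 on each array.

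Prdx4 gave divergent readings from its 4 probe sets. The probe set 1416166_a_at had a signal of 5312 in MTf 4 and 6136 in MTf 6, against 10806 in vector 1 and 9585 in vector 2. Both clones thus lay below both vector lines, which is the value that chose the family. The means were 5724 ± 583 in the clones, against 10196 ± 863 in the vector lines (SD, n = 2 each). The difference, clones minus vector lines, was -0.83 on the scale of log2(signal + 32), or 0.562-fold, with a standard error of 0.18 from the fit across all probe sets. In bulk RNA, fewer cells that express a gene and less of its RNA per cell cannot be told apart. Of the 22519 probe sets in that fit, 201 had a difference as low or lower, Prdx4 included.

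The other probe sets of Prdx4 did not share that difference. The probe set 1416167_at, which the platform pairs with the same RefSeq transcript record as 1416166_a_at, gave 20124 in MTf 4 and 21242 in MTf 6, against 18014 in vector 1 and 22135 in vector 2. The clones lay between the vector lines, and the log2 difference was 0.05 (SE 0.17). The probe set 1435731_x_at gave 2412 in MTf 4 and 1929 in MTf 6, against 2429 in vector 1 and 2150 in vector 2, a log2 difference of -0.08 (SE 0.21). It was the nearest Prdx4 probe set outside the choice, since MTf 4 lay above vector 2. On Affymetrix arrays the suffix _a_at marks probe sets that match several transcript variants of a gene, and _x_at marks those with probes that also match other sequences.

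The remaining probe set of Prdx4, 1431269_at, was dim and stayed below the filter on low signals. It gave 182 in MTf 4 and 201 in MTf 6, against 172 in vector 1 and 93.8 in vector 2. Both clones were above both vector lines, opposite to 1416166_a_at, but MTf 4 and vector 1 lay close together. It was not tested.

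The 2 probe sets designed on the same record were set against each other within each array, where only the change between arrays can be read and not their levels. The log2 value of 1416166_a_at minus that of 1416167_at was -1.92 in MTf 4 and -1.79 in MTf 6, against -0.74 in vector 1 and -1.20 in vector 2. Both clones lay below both vector lines, and the mean difference, clones minus vector lines, was -0.88. The vector lines differed from each other by more than the clones did. The 2 probe sets therefore changed unequally between the arrays, and which of them follows the amount of Prdx4 RNA was not tested.

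**Figure D1:**
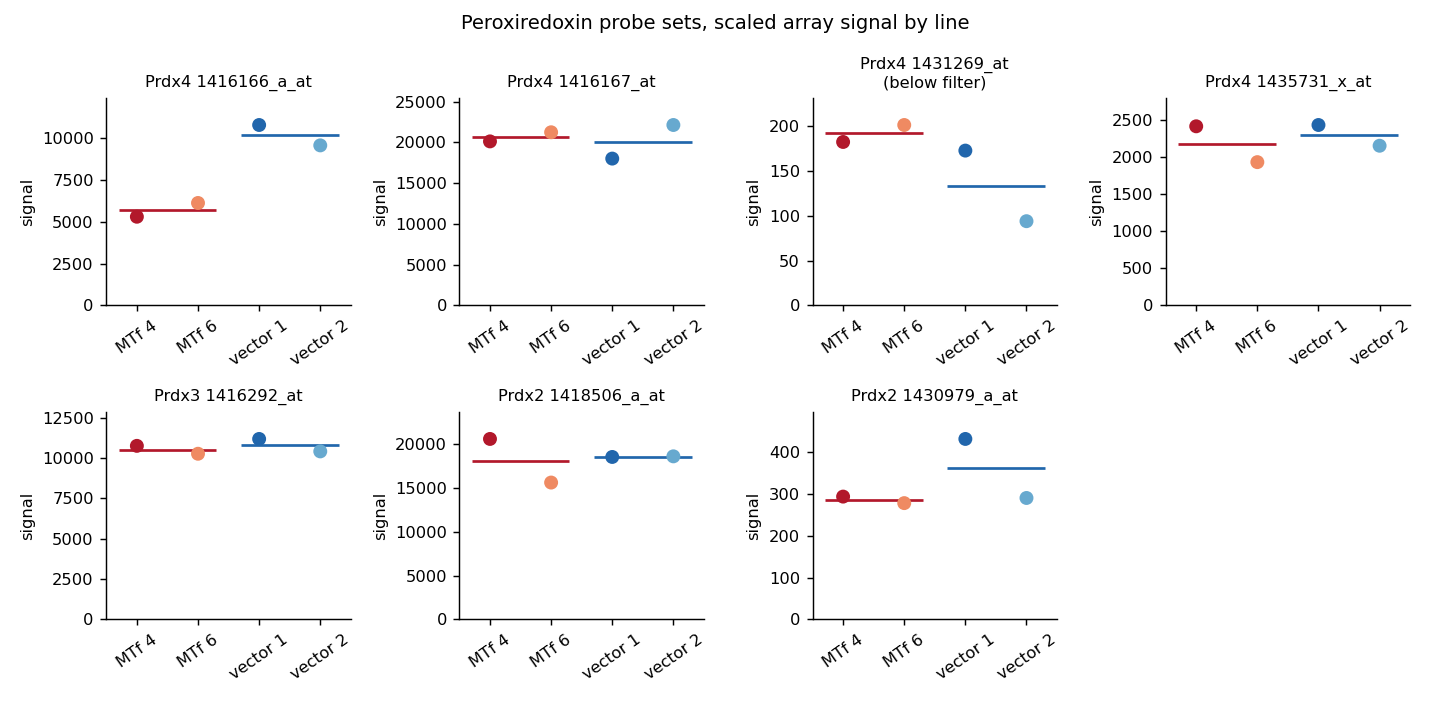
Scaled array signal (linear axis from 0) of the 7 peroxiredoxin probe sets in each line, with 1 point per array and a bar at the mean of each group of 2 lines. Prdx4 1416166_a_at is the tested probe set whose clones (5312 and 6136) lie below both vector lines (10806 and 9585), while Prdx4 1416167_at, Prdx4 1435731_x_at, Prdx3 and both Prdx2 probe sets overlap between the groups.

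**Figure D2:**
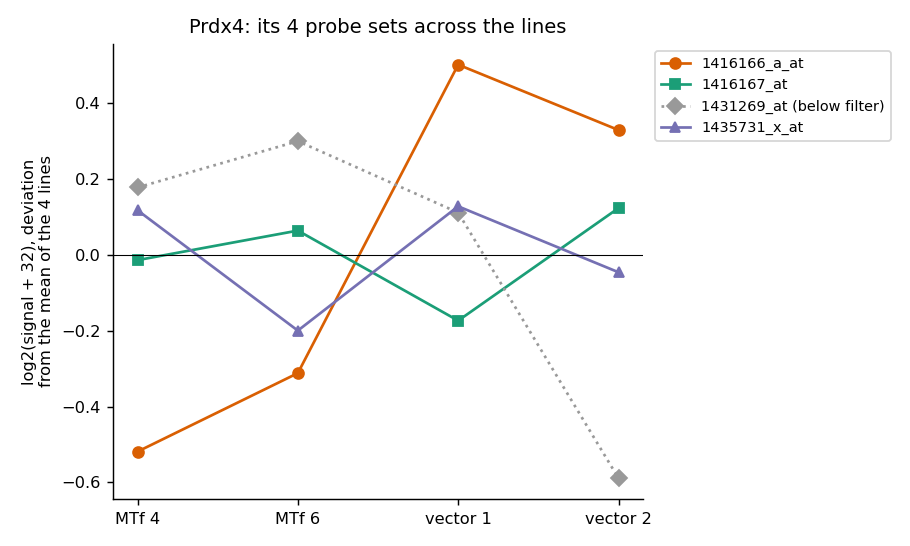
Deviation of each Prdx4 probe set from its own mean over the 4 lines, on the log2(signal + 32) scale, with a dotted line for the probe set below the filter. 1416166_a_at lies at -0.52 in MTf 4 and -0.31 in MTf 6, against 0.50 in vector 1 and 0.33 in vector 2, while 1416167_at stays between -0.17 and 0.12.

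Prdx3, the mitochondrial peroxiredoxin, was the steadiest of the members. Its probe set 1416292_at gave 10759 in MTf 4 and 10270 in MTf 6, against 11188 in vector 1 and 10416 in vector 2. The groups overlapped, since MTf 4 lay between the vector lines, and the highest signal was 1.09 times the lowest. The log2 difference was -0.04 (SE 0.17).

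Prdx2, a cytosolic peroxiredoxin, had 2 probe sets in which the groups overlapped. The bright one, 1418506_a_at, gave 20561 in MTf 4 and 15592 in MTf 6, against 18509 in vector 1 and 18580 in vector 2. The vector lines lay close together between the clones, and the log2 difference was -0.05 (SE 0.19). Between the clones it was -0.40, MTf 6 minus MTf 4, with 1 array each and no replicate check. Over all tested probe sets the median absolute log2 difference was 0.29 between the clones and 0.25 between the vector lines.

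The second probe set of Prdx2, 1430979_a_at, gave 294 in MTf 4 and 278 in MTf 6, against 432 in vector 1 and 290 in vector 2. Vector 1 stood above the other 3 lines, which lay close together. The log2 difference was -0.28 (SE 0.32), and without vector 1 it was -0.02.

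Of the 7 members, 6 passed the filter and were tested, and 0 of 6 passed limma's threshold of an adjusted p of 0.05. Over all probe sets 0.00444% were called, 1 of 22519. Meltf, the targeted gene, did not pass either, so a count of 0 passing does not show that no gene changed. At an unadjusted 0.05 there was 1 member, the Prdx4 probe set that chose the family, among 408 probe sets in all. Clones and vector lines were free of overlap in 1 of these 6, against 25.8% of all tested probe sets. Both clones were below both vector lines in that 1 (13.6% of all) and above both in 0 (12.1% of all). The median log2 difference of the 6 was -0.07, against -0.01 over all tested probe sets. Because the choice of the family used this comparison, nothing is read from these counts. A two-sided exact permutation test of 2 lines against 2 cannot go below p = 0.333, so none was run on single values.

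**Figure D3:**
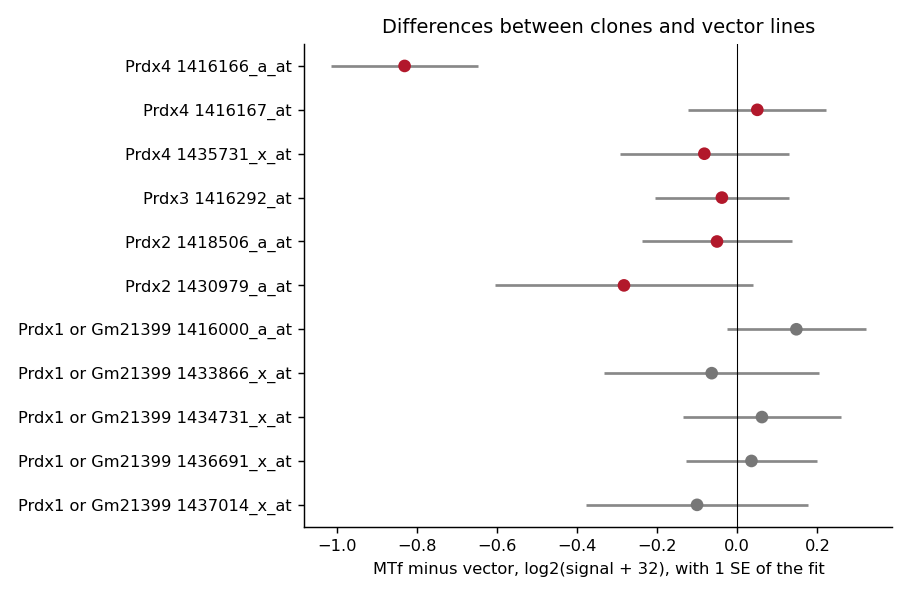
Difference, clones minus vector lines, on the log2(signal + 32) scale with 1 standard error of the limma fit, for the 6 tested members (red) and the 5 probe sets annotated to Prdx1 and Gm21399 (grey). Prdx4 1416166_a_at lies at -0.83, and the other 10 lie between -0.28 and 0.15.

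The 5 probe sets annotated jointly to Prdx1, the abundant cytosolic peroxiredoxin, and Gm21399, its pseudogene copy, cannot be assigned to either. In each of them the clones and the vector lines overlapped. The probe set 1416000_a_at gave 36924 in MTf 4 and 45786 in MTf 6, against 40016 in vector 1 and 34422 in vector 2. The probe set 1434731_x_at gave 30494 in MTf 4 and 42863 in MTf 6, against 36490 in vector 1 and 32881 in vector 2. In both, MTf 6 was highest, vector 1 next, and MTf 4 and vector 2 lowest. The probe set 1436691_x_at repeated this order with 43890 in MTf 4 and 53923 in MTf 6, against 49993 in vector 1 and 45062 in vector 2.

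The other 2 probe sets placed vector 1 highest. The probe set 1433866_x_at gave 16879 in MTf 4 and 24726 in MTf 6, against 26681 in vector 1 and 17088 in vector 2. The probe set 1437014_x_at gave 3724 in MTf 4 and 5068 in MTf 6, against 5918 in vector 1 and 3667 in vector 2. Thus MTf 6 and vector 1 were both above MTf 4 and vector 2 in 5 of 5 probe sets, an order seen in 21.3% of all tested probe sets and in 0 of the 6 tested members. Of the 5, 4 carry the suffix _x_at, and probe sets of the same transcripts share their source RNA, so they are not independent readings.

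The log2 differences of these 5 probe sets between clones and vector lines lay between -0.10 and 0.15, with a median of 0.04 and 0 passing the threshold (limma, also 0 at an unadjusted 0.05). Prdx1 lies on chromosome 4, whose genes as a whole stood higher in MTf 6. Set against the other 3 lines, the 5 probe sets stood at 0.22 to 0.37 (log2) in MTf 6, and the median over 643 genes of chromosome 4 was 0.29. In vector 1, by contrast, the 5 probe sets stood at 0.05 to 0.52 on the same measure, and the chromosome at -0.11. The part of the chromosome in the order of the lines was not tested.

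**Figure D4:**
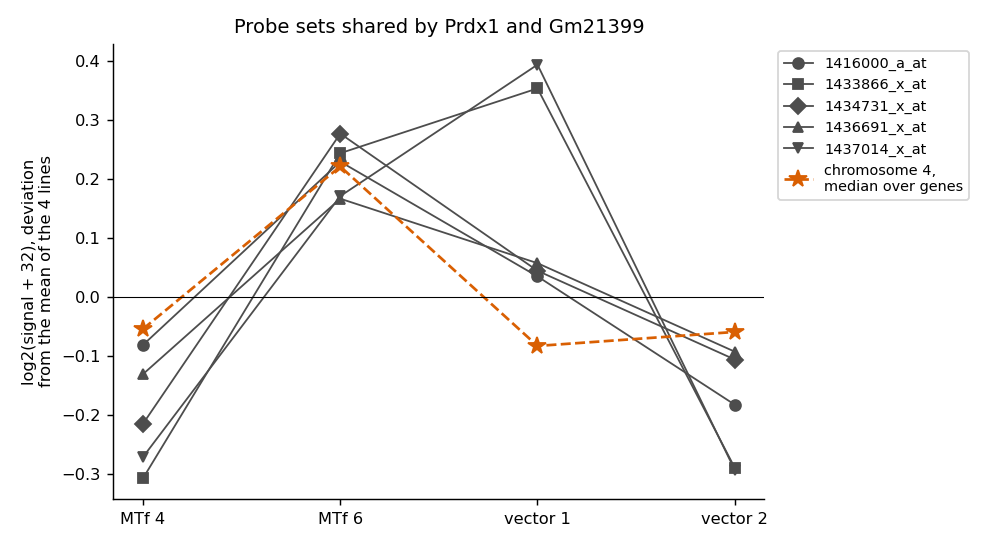
Deviation from the mean of the 4 lines, on the log2(signal + 32) scale, of the 5 probe sets annotated to Prdx1 and Gm21399 (grey) and the median over 643 genes of chromosome 4 (orange, dashed). All 5 are above 0 in MTf 6 and vector 1 and below 0 in MTf 4 and vector 2, while the chromosome is above 0 in MTf 6 alone.

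The other genes of the peroxiredoxin system were described from a list of 37 genes. Probe sets of their own existed for 36, and 71 probe sets of 32 genes passed the filter. None passed the test in either direction (limma, 0 of 71). At an unadjusted 0.05 there was 1 of 71, against 408 of 22519 over all tested probe sets, so nothing is read from it. Of the 71, 37 were higher in the mean of the clones and 34 lower, and their median log2 difference was 0.01, against -0.01 over all tested probe sets. Both clones were below both vector lines in 11 of the 71 (13.6% of all tested probe sets) and above both in 6 (12.1% of all). Nothing is read from these counts either.

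On the thioredoxin side, 0 of 24 tested probe sets passed. Txnip, an inhibitor of thioredoxin, gave 3988 in MTf 4 and 2685 in MTf 6, against 2219 in vector 1 and 2315 in vector 2 by 1415997_at, a log2 difference of 0.52 (SE 0.24). Both clones were above both vector lines, MTf 4 most. The brighter Txnip probe set 1415996_at gave 4922 in MTf 4 and 3286 in MTf 6, against 2803 in vector 1 and 3341 in vector 2, a log2 difference of 0.39 (SE 0.25), and there MTf 6 lay below vector 2. Txn1, thioredoxin itself, gave 76.5 in MTf 4 and 559 in MTf 6, against 794 in vector 1 and 512 in vector 2 by its dim probe set 1456734_at, where MTf 4 stood far below the other 3. Its bright probe set 1416119_at gave 41113 in MTf 4 and 56573 in MTf 6, against 47210 in vector 1 and 40781 in vector 2.

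Txnrd1, the cytosolic thioredoxin reductase, was named after its values were seen. Its probe set 1421529_a_at gave 9227 in MTf 4 and 13091 in MTf 6, against 11963 in vector 1 and 8233 in vector 2. Both Txn1 probe sets and all 3 of Txnrd1 had MTf 6 and vector 1 above MTf 4 and vector 2, as did the 5 probe sets annotated to Prdx1 and Gm21399. Txn1 also lies on chromosome 4, whose genes stood higher in MTf 6, and the part of the chromosome was not tested. The tested probe sets of Srxn1 did not have this order, while its probe set below the filter did. Over the whole list this order held in 12 of 71 tested probe sets, against 21.3% of all tested probe sets.

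Among the genes listed under repair, which were Srxn1, Sesn1, Sesn2 and Sesn3, 0 of 10 tested probe sets passed. Srxn1, sulfiredoxin, gave 1229 in MTf 4 and 1287 in MTf 6, against 2144 in vector 1 and 1653 in vector 2 by 1425351_at, a log2 difference of -0.57 (SE 0.22), the only value of the list under an unadjusted 0.05 (adjusted p = 1.00 by limma). A second Srxn1 probe set, 1426875_s_at, gave 2363 in MTf 4 and 2594 in MTf 6, against 3061 in vector 1 and 3142 in vector 2. Both clones were below both vector lines in these 2 probe sets, but not in 1451680_at, which was at 2311 and 1932 in the clones, against 2477 and 2005 in the vector lines. The probe set 1419942_at was below the filter.

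Among the other peroxide and superoxide enzymes, 0 of 16 tested probe sets passed. Gpx4, the glutathione peroxidase that reduces lipid peroxides, gave 31478 in MTf 4 and 19051 in MTf 6, against 17318 in vector 1 and 15829 in vector 2 by 1456193_x_at, a log2 difference of 0.56 (SE 0.25). Sod2, the mitochondrial superoxide dismutase, gave 1321 in MTf 4 and 1247 in MTf 6, against 1827 in vector 1 and 1729 in vector 2 by 1454976_at, a log2 difference of -0.46 (SE 0.20). Both parted the groups without passing. Another Gpx4 probe set, 1451695_a_at, differed by 0.30 and also parted the groups. The other 3 of Sod2 differed by -0.27, -0.22 and 0.05. The groups were parted in the first of these, 1417193_at, and overlapped in the others. Gstp1, which can reactivate Prdx6, gave 39327 in MTf 4 and 33525 in MTf 6, against 29460 in vector 1 and 34241 in vector 2, and the groups overlapped.

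Among genes of oxidative folding in the endoplasmic reticulum, where Prdx4 works, 0 of 20 tested probe sets passed (0 at an unadjusted 0.05), and the differences lay between -0.28 and 0.48 with a median of -0.05. Ero1a, the oxidase that feeds disulfides to protein disulfide isomerase, gave 8966 in MTf 4 and 13089 in MTf 6, against 14210 in vector 1 and 12267 in vector 2 by 1419029_at, and its other 2 probe sets differed by -0.18 and -0.07. Pdia6, a protein disulfide isomerase, gave 491 in MTf 4 and 501 in MTf 6, against 251 in vector 1 and 472 in vector 2 by 1430983_at. In Ero1a 1419029_at MTf 4 stood apart and in Pdia6 1430983_at vector 1 did. By 1419030_at, Ero1a gave 8285 in MTf 4 and 8686 in MTf 6, against 10325 in vector 1 and 8915 in vector 2. Both clones were below both vector lines there, while the groups overlapped in Ero1a 1449324_at. The bright Pdia6 probe set 1423648_at gave 18284 in MTf 4 and 16992 in MTf 6, against 14980 in vector 1 and 19748 in vector 2, where the groups overlapped and the log2 difference was 0.04 (SE 0.19). The oxidase genes Cyba and Nox4 were below the filter.

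**Figure D5:**
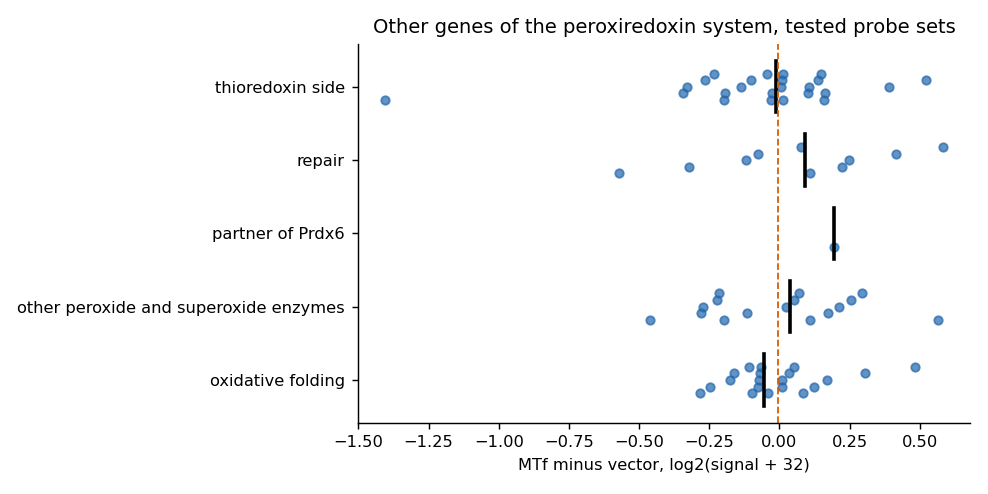
Difference, clones minus vector lines, on the log2(signal + 32) scale for the 71 tested probe sets of the peroxiredoxin system, by subgroup, with a black bar at each subgroup's median and a dashed line at the median of all tested probe sets (-0.01). Points lie on both sides of 0 in every subgroup but that of Gstp1, which holds 1 probe set.

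The nearest measured genes on each side of the members were compared with them. Acot9, an acyl-CoA thioesterase gene directly next to Prdx4 on chromosome X, gave 11997 in MTf 4 and 14205 in MTf 6, against 12962 in vector 1 and 12742 in vector 2, a log2 difference of 0.02 (SE 0.17). Mbtps2, on the other side and 20 genes away, had a difference of -0.08 (SE 0.20). The median over 313 genes of chromosome X was -0.03, so neither the neighbours nor the chromosome showed the difference of 1416166_a_at. On the 2 sides of Prdx1, Akr1a1, 3 genes away, and Mmachc, directly next to it, differed by 0.12 and 0.14. Directly next to Prdx2, Rnaseh2a and Junb differed by -0.05 and 0.19. On the 2 sides of Prdx3, Dennd10, 2 genes away, and Grk5, directly next to it, differed by -0.18 and 0.04.

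The genes whose pattern over the 4 lines was most like that of Prdx4 1416166_a_at were Sumf2, Ube2w, Sbf2, Troap and Synpo2l. Likeness was the root mean square difference of log2(signal + 32) values after subtracting each probe set's mean, over 4 arrays and 19401 probe sets, and it lay between 0.033 and 0.073 for these 5. Ube2w, a ubiquitin conjugating enzyme, gave 610 in MTf 4 and 704 in MTf 6, against 1240 in vector 1 and 1180 in vector 2. Sumf2, a sulfatase modifying factor gene, gave 171 in MTf 4 and 192 in MTf 6, against 355 in vector 1 and 315 in vector 2. In both clones Sumf2, Sbf2 and Synpo2l lay below the filter level of 206, so they passed it only through the vector lines. All 5 were matched to the probe set that chose the family, so their difference between the groups is no separate result. With 4 arrays many probe sets can share an order, and the likeness is a description.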

How the data were processed

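Per the submitters' processing notes, GCOS 1.3 produced the deposited intensity of each probe set, which is on a linear scale. How that software was set is not stated there. No further scaling was applied, and detection calls were not used. Gene names came from the platform annotation, which paired 34945 of 45037 non-control probe sets with 1 gene, 932 with several and left 9160 unnamed here. Chromosomes and neighbouring genes came from a RefSeq gene table of GRCm38.p6. Signals were converted to log2(signal + 32), on which fold changes of dim probe sets are understated. Probe sets with a mean signal below the median of the non-control probe sets, 206, were left out, and 22519 were fitted with limma 3.58.1 in R 4.3.3 (lmFit, eBayes with a trend, Benjamini-Hochberg over all tested probe sets). The fit was tested on simulated data with shifts larger than any difference described here, which says nothing of its power for smaller ones. The number of arrays, 2 per group, limits the precision, and p-values reflect the spread between these lines only. Named genes are all members, the 2 probe sets per subgroup of the system list with the smallest p, the nearest measured gene on each side, the 5 genes most like Prdx4, Meltf and Tk1. Other genes or probe sets described were added after their values were seen. The members and lists were chosen with earlier results of these data known. Alternatives covered the offset, the scaling, the filter, the trend, the chromosome median and each array left out in turn.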

Additional observations from a re-analysis of the deposited data

How the results depend on the processing

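The Prdx4 probe set 1416166_a_at had a log2 difference, clones minus vector lines, between -0.93 and -0.73 with each array left out in turn, and between -0.84 and -0.81 with an offset of 16 or 64, quantile normalization or its chromosome's median subtracted. Of the other 11 probe sets described, members and those annotated to Prdx1 and Gm21399 together, 2 kept their sign in all 4 fits that left out 1 array, Prdx4 1431269_at and Prdx2 1430979_a_at, and the other 9 did not. The number of probe sets called over the whole array was 1 in the fit as reported, 0 without the filter on dim probe sets, 0 without the trend in eBayes and 1 with the other planned settings that kept all arrays. With 1 array left out it lay between 1 and 21. It was 21 without MTf 4, 9 without MTf 6, 2 without vector 1 and 1 without vector 2, and such fits assume that the lone line of a group varies like the others. None of these settings called a member, a probe set annotated to Prdx1 and Gm21399 or a probe set of the system list. The cause of the changed counts was not tested. No paired analysis was possible because the clones (4 and 6) and the vector lines (1 and 2) share no replicate number. With 2 lines per group, differences of the size seen between lines of the same group cannot be told from differences between the groups.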
